A study of Mus musculus with 36 samples.

Results

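The genes described here are 38 transcription factor genes that pattern the embryonic brain, namely homeobox genes of the Otx, Emx, Dlx, LIM, Sine oculis (Six3 and Six6), Nkx, Engrailed, Gbx, Iroquois, Gsx, Dbx, Msx, Phox and Meis families together with 5 PAX genes. They were chosen by name, and each was taken as its gene record in the mm10 annotation with 2 kb on either side, out of 20720 autosomal protein-coding genes treated in the same way. 5-methylcytosine was measured at CpG sites by oxidative bisulfite reduced representation sequencing (oxBS-RRBS) in single E11.5 mouse brains, dissected from the rostral forebrain to the hindbrain above the otic vesicle. Embryos carried no (WT), 1 (HET) or 2 (KO) copies of Tet1<tm1Koh>, an allele with a cassette inserted at the first coding ATG of Tet1, on the 129S6.Cg strain. All were carried by HET dams kept on a diet whose folic acid (FA) was depleted at 0.1 ppm, at the control level of 3 ppm, or in excess at 30 ppm, and every diet contained succinylsulfathiazole, an antibiotic that limits folate made by gut bacteria. After leaving out HET 0.1 ppm replicate 2, which the study also dropped for low coverage, there were 3 WT, 5 HET and 6 KO embryos at 30 ppm, 4 WT, 3 HET and 5 KO at 3 ppm, and 2 WT, 2 HET and 5 KO at 0.1 ppm. Of the 16 KO embryos, 5 were labelled NTD (neural tube defect), 4 inHB (not spelled out in the labels, and given as brain malformation in the study's list of embryos) and 7 norm.

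Homeobox and PAX proteins bind DNA through conserved domains and divide the neural tube into regions along its length and from back to belly, so that each region gives rise to its own neurons. Otx2 and Gbx2 set the border of midbrain and hindbrain, Six3 and Lhx2 mark the anterior forebrain and eye field, Nkx genes mark ventral progenitors, Msx genes the dorsal midline, and LIM-homeodomain genes the types of neurons that leave the cell cycle. The promoters of such genes lie in broad CpG islands that are known as targets of Polycomb and are usually free of DNA methylation. TET1 oxidises 5-methylcytosine to 5-hydroxymethylcytosine, a step towards removing the methyl group. Oxidative bisulfite treatment converts 5-hydroxymethylcytosine along with unmethylated cytosine, so that only 5-methylcytosine is read as methylated.

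Summed over CpGs, the read counts of the 35 libraries came to between 25.6 M and 197 M, with a mean of 12.1 to 61.5 reads per CpG. Genotype labels were checked at a CpG in an intron of Tet1 (chr10:62884019, mm10). Of 107 CpGs in the Tet1 window with reads in all 35 libraries, 11 had every KO above every WT once 3 libraries had been set aside beforehand. The CpG with the widest such gap was taken, so the separation of these WT and KO was fixed by the choice. HET took no part in it. In the other 33 libraries (the left-out HET included), 7 WT lay between 0 and 7.32%, 11 HET between 8.33 and 69.2%, and 15 KO between 69.6 and 100%. Against these ranges, the 3 libraries set aside did not match their labels, and their levels are given at this CpG only. The same choice set the WT and KO ranges as far apart as these CpGs allow. The mismatch is therefore a description and not a test of the 3 labels, and the reason for setting them aside is not given here. The library labelled KO 30 ppm replicate 1 read 45% from 20 reads, the library labelled WT 30 ppm replicate 2 read 36.36% from 33 reads, and the library labelled WT 0.1 ppm replicate 2 read 40% from 15 reads. The study's own list of embryos gives the first of these as HET, against its GEO label, and the others as WT, as they are labelled. All 3 stayed in the groups their GEO labels name, and the leading genotype differences are also given without them. No RNA is used here, so the tissue label was not checked against expressed markers. A whole brain holds many cell types, so a change in the share of cells carrying methylation cannot be told apart from a change within cells.

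Each gene was split into the promoter core (CpGs within 500 bp of a transcript start), the promoter shore (500 to 2000 bp away) and the rest of its window. The level of a region in an embryo was its methylated reads as a percentage of all reads, over CpGs covered by at least 5 reads in all 35 embryos, and a region was tested where it had at least 3 such CpGs. Read numbers given for a region are sums over its CpGs, so a read covering several CpGs counts once for each. All 38 genes had at least 1 tested region and 31 had all 3, giving 107 regions (36 core, 37 shore and 34 rest) of 32705 over all genes. Too few CpGs were covered to test the core of Pax5 and Dlx1, the shore of Dlx5, and the rest of Otx2, Nkx2-1, Nkx6-2 and Gsx2. Of these, the Dlx1 core passed with a core of 1000 bp (1.03 points over all diets, adjusted p = 0.0115). The rest of Nkx6-2 passed when CpGs had to be covered only in the embryos compared, by 15.8 points in KO against WT at 3 ppm FA (adjusted p = 0.00454) and 17.5 at 0.1 ppm (adjusted p = 0.0423). The windows of 8 of the genes overlap the window of another protein-coding gene. Among them are Phox2a with Inppl1 and Lhx3 with Qsox2, and a CpG in such an overlap belongs to both windows.

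Most regions of the patterning genes held little 5-methylcytosine, in the gene body as well as at the promoter. The median WT level of their cores was 0.677%, close to the 0.690% of all genes. The shores were at 0.822% against 3.45% for all genes, and the rest of the window was at 2.19% against 83.1%. In WT brain 24 of the 34 regions outside the promoter were under 5% methylated, which is 70.6%, whereas 5.85% of such regions were under 5% over all genes. The other 10 ran from 6.05% for Meis1 to 28.1% for Meis2, with Pax8 apart at 77.5%. The same held for 82 other homeobox and PAX genes, with median WT levels of 0.706, 0.924 and 3.08% in core, shore and rest. Of 4795 CpGs measured in the 38 genes, 4443 (92.7%) were under 5% methylated in HET brain, against 69.0% of 748710 CpGs over all genes. The sequence around the first transcript start was richer in CpGs, with a median of 6.24 CpGs per 100 bases within 500 bases on either side against 4.50 for all genes. Pax8, a thyroid, kidney and midbrain–hindbrain PAX gene, was the CpG-poorest at 1.80 per 100 bases, and its core was the one core above 5% in WT, at 7.75% ± 2.17 (SD, n = 9).

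**Figure D1:**
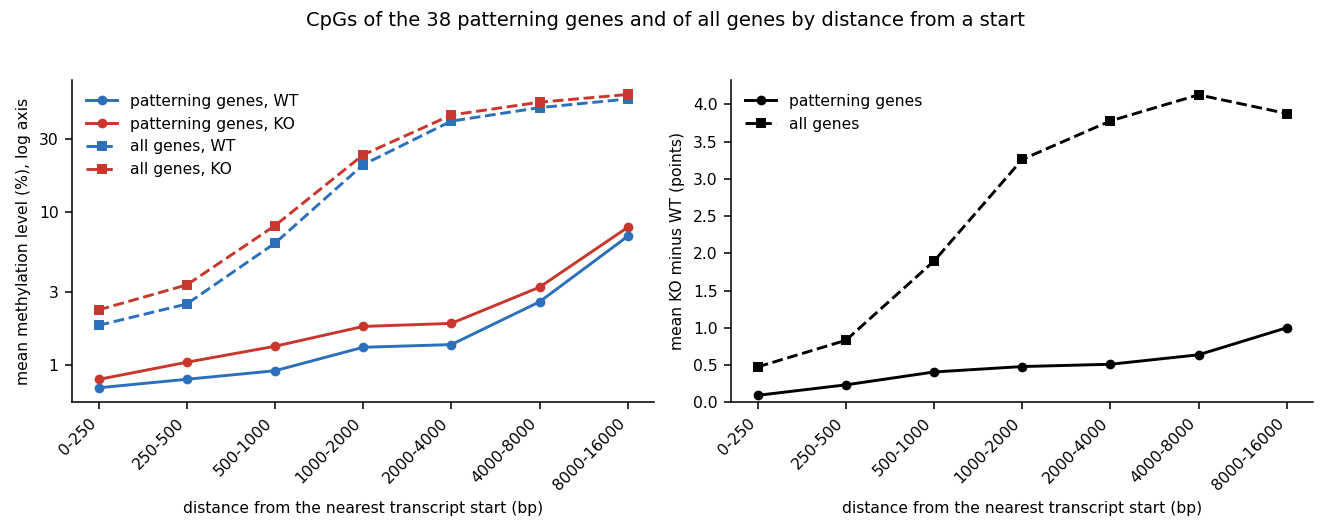
Mean methylation level in percent on a log axis (left, WT in blue and KO in red) and mean KO minus WT difference in points (right) of CpGs by distance in bp from the nearest transcript start, for the 38 patterning genes (solid) and all genes (dashed). In the patterning genes the WT mean stayed at 1.31% from 1 to 2 kb and reached 6.95% from 8 to 16 kb, where all genes had 20.4% and 54.9%.

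Methylation at the measured CpGs stayed low over kilobases. Within 250 bp of a start the CpGs of the 38 genes averaged 0.711% in WT and 0.807% in KO, and from 1 to 2 kb they averaged 1.31% and 1.79%. CpGs of all genes went from 1.82% in WT and 2.30% in KO near the start to 20.4% and 23.7% at 1 to 2 kb. Examples are the Engrailed genes, which maintain the midbrain and anterior hindbrain. All 134 measured CpGs of En2 and all 114 of En1 were under 5% in WT, with highest levels of 2.70% and 4.65%. The En1 shore lay between 0.395 and 1.15% in the 9 WT, between 0.373 and 1.00% in the 10 HET and between 0.411 and 1.35% in the 16 KO, with full overlap. The 250 bases before the En1 start (chr1:120602168-120602417, mm10, plus strand) show how dense such a promoter is. They are printed from the GRCm38.p6 RefSeq genome, with the 22 measured CpGs in capitals.
En1 upstream: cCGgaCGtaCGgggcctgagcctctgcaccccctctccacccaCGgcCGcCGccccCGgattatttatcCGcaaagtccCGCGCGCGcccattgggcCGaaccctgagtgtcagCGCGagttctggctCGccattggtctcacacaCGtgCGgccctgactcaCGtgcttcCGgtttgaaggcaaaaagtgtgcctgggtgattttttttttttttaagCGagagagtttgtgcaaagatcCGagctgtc

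Methylation was higher in KO brain in a minority of the regions and lower in none. With diet as a term, 26 of the 107 regions were higher in KO than in WT (adjusted p under 0.05) and 0 were lower, in 21 of the 38 genes, where 39.2% of all regions were higher and 0.168% lower. By class, 5 of 36 cores rose (23.5% of cores of all genes did), 8 of 37 shores (44.3%) and 13 of 34 regions of the rest (52.6%), so each share lay below that of all genes. The median difference was 0.06 percentage points in cores, 0.12 in shores and 0.53 in the rest, beside 0.11, 1.28 and 2.66 points over all genes. Of the 26 regions that rose, 11 differed by under 1 point, 10 by 1 to 5 points and 5 by 5 points or more. The conversion of each library was not tested, so levels near 0 cannot be told apart from incomplete conversion. In the groups as labelled, only the Phox2a shore separated the genotypes fully, with every KO above every WT, which 1.14% of all regions showed. The Lhx3 shore did so too without the 3 libraries, where the share of all regions is not given here. Of the 82 other homeobox and PAX genes, 11 of 72 cores, 23 of 68 shores and 34 of 70 regions of the rest rose, and 0 fell. Without the 3 libraries whose Tet1 reads went against their labels, 5 cores, 7 shores and 14 regions of the rest of the patterning genes rose, of which 5, 6 and 12 were among those above, where 42.3% of all regions rose. The shore of Msx1 (1.15 points, adjusted p = 8.18e-04) and the rest of Lhx5 and Meis1 were added, and the shores of Gsx2 and Emx2 and the rest of Six3 were lost. limma, run on mean CpG levels, called 1 region lower, the rest of Dlx1 (by -0.52 points, adjusted p = 0.0245).

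**Figure D2:**
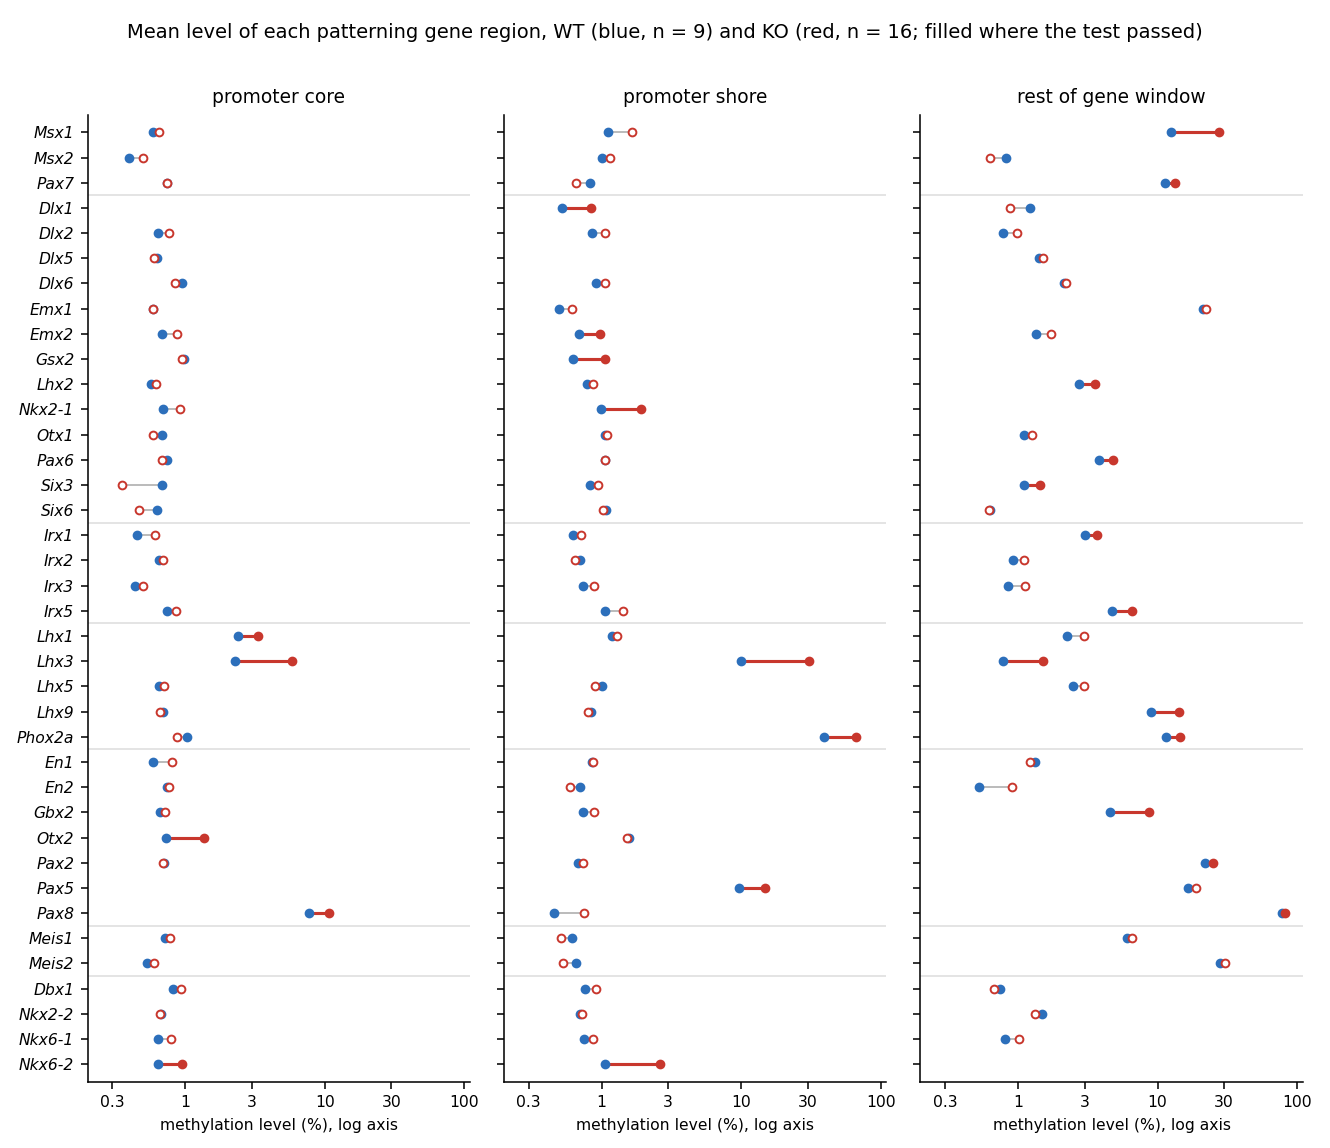
Mean methylation level in percent on a log axis (x) of each tested region of the 38 genes (y, ordered by role), in WT (blue, n = 9) and KO (red, n = 16), for core, shore and rest. Filled red points and thick lines mark regions that passed the test, and most pairs lie close together near 1%, with the Phox2a shore (39.4 and 66.9%), the Lhx3 shore (9.95 and 30.5%) and the rest of Msx1 (12.5 and 27.5%) standing apart.

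Among the factors that define neuron subtypes 7 of 15 regions rose, a share close to the 39.2% of all regions. The Phox2a and Lhx3 shores rose by more than any other region of the 38 genes. Phox2a specifies noradrenergic neurons and the oculomotor and trochlear motor neurons. The shore of Phox2a, which was measured through 3 CpGs in an intron 1047 to 1131 bp past its start, lay at 25.8 to 53.5% (median 36%) in the 9 WT, 31.0 to 50.8% (median 44.3%) in the 10 HET and 56.0 to 77.6% (median 67.9%) in the 16 KO. KO exceeded WT by 28.0 points (SE 3.12, adjusted p = 5.04e-08), resting on 36 to 303 reads per embryo summed over the 3 CpGs. The WT and HET ranges overlapped, and no KO entered either. Without the 3 libraries the difference was 33.1 points. The stretch is shown from chr7:101819350-101819455 (mm10, plus strand, GRCm38.p6), with the 3 measured CpGs in capitals. They are the only CpGs of the shore that were covered in all embryos.
Phox2a run 1: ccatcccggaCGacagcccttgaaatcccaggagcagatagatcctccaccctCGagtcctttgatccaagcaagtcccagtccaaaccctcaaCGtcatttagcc

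Lhx3, a LIM-homeodomain gene of motor neurons, V2 interneurons and the pituitary, rose in all 3 of its regions. Its shore, with 11 CpGs, lay at 6.98 to 16.1% (median 9.36%) in WT, 7.24 to 15.6% (median 12.4%) in HET and 16.02 to 36.1% (median 30.7%) in KO. The difference was 20.8 points (SE 1.81, adjusted p = 2.74e-10), and 15 of the 16 KO were above every WT. The difference was 22.8 points without the 3 libraries. The 1 KO that was not is the library labelled KO 30 ppm replicate 1, and the highest WT was the library labelled WT 30 ppm replicate 2. Without the 3 libraries KO ran from 27.2 to 36.1% and WT from 6.98 to 12.1%. The Lhx3 core went from 2.27% ± 0.651 (SD, n = 9) in WT to 5.81% ± 1.80 (SD, n = 16) in KO, a difference of 3.54 points (SE 0.658, adjusted p = 3.43e-07). The rest of its window differed by 0.74 points. Runs of at least 3 CpGs that were each 10 points or more higher in KO, with gaps of at most 100 bp, were found 11 times in 7 of the 38 genes. Other genes were not searched for runs, so no share over all genes stands beside this count. The 3 runs of Lhx3 lay in introns, on both sides of 1 of its 2 transcript starts, an inner start within the gene record. They are printed on the minus (gene) strand (mm10, GRCm38.p6), with all measured CpGs in capitals. They were at chr2:26205786-26205899, chr2:26206947-26207017 and chr2:26207097-26207172, and the second and the third also lie in Gm27196.
Lhx3 run 1: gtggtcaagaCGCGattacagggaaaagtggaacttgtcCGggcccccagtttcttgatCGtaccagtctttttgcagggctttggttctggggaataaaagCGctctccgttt
Lhx3 run 2: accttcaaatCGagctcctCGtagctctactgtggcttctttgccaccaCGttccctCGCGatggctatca
Lhx3 run 3: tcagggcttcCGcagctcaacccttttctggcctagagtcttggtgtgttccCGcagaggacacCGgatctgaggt

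The first of these runs lay 687 to 779 bp past that inner start. Its mean level was 14.5% ± 3.76 (SD, n = 9) in WT, 16.6% ± 3.57 (SD, n = 10) in HET and 42.4% ± 7.63 (SD, n = 16) in KO. The second run had means of 9.08, 9.97 and 26.3%, and the third 6.96, 7.93 and 24.6%. The level of a run was taken over its gaining CpGs only, which are 3 of the 5 measured CpGs in the second Lhx3 run. These runs were picked for their KO gain, so the values are a description and were not tested. The rest of Lhx9, a LIM gene of thalamic and dorsal spinal neurons, rose from a WT range of 7.61 to 10.3% to a KO range of 9.70 to 18.4%, by 5.16 points (SE 0.876, adjusted p = 7.82e-07), with 15 of 16 KO above every WT, and by 5.19 points without the 3 libraries. The rest of Phox2a rose by 3.16 points (adjusted p = 2.14e-04). Its run of gaining CpGs lay outside the gene and within Inppl1, at a mean of 64.2% in WT and 80.8% in KO. Over only those CpGs with at least 10 reads in every embryo, the rest differed by 0.17 points (adjusted p = 0.733). The core of Lhx1, a gene of head organiser and interneurons, rose by 0.96 points, from 2.39 to 3.30%. Lhx5, its close relative, passed in no region in the main test. The rest of its window passed without the 3 libraries (0.61 points, adjusted p = 0.0174) and with at least 10 reads per CpG (0.56 points, adjusted p = 0.0138). So did the rest of Lhx1 when CpGs had to be covered only in the WT and KO embryos (1.25 points, adjusted p = 0.00746).

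**Figure D3:**
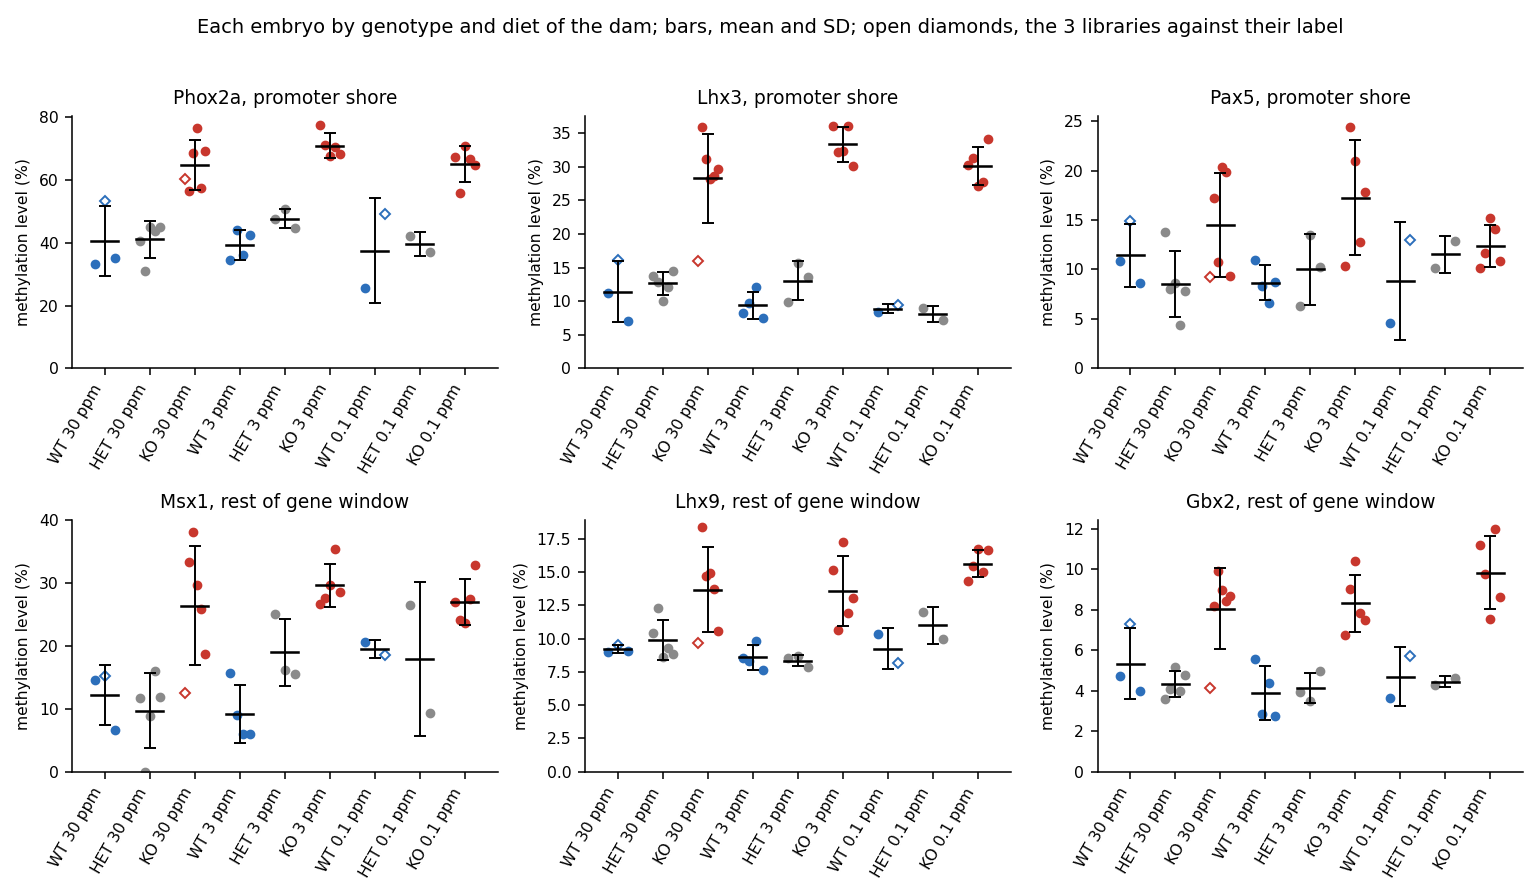
Methylation level in percent (y axis) of single embryos by genotype and diet (x axis) for 6 patterning gene regions that rose in KO by 4 points or more, with group mean and SD. The KO embryos of the Phox2a shore, at 56.0 to 77.6%, all lie above the WT embryos, at 25.8 to 53.5%, and open diamonds mark the 3 libraries whose Tet1 reads went against their labels.

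Around the midbrain–hindbrain boundary 6 of 19 regions rose, beside 39.2% of all regions, in Gbx2, Pax2, Pax5, Pax8 and Otx2. Gbx2 sets the hindbrain side of the boundary, and the rest of its window went from 2.77 to 7.29% (median 4.37%) in WT to 4.15 to 11.97% (median 8.66%) in KO, with HET at 3.50 to 5.16%. The difference was 4.00 points (SE 0.712, adjusted p = 7.60e-05), and 14 of 16 KO were above every WT. It was 4.76 points without the 3 libraries. Otx2, on the forebrain and midbrain side, gained 0.62 points in its core, from 0.728 to 1.37%. The Pax5 shore rose by 5.37 points (SE 1.83, adjusted p = 0.00408), from 4.57 to 14.9% in WT to 9.27 to 24.4% in KO, with 7 of 16 KO above every WT, and by 7.58 points (adjusted p = 1.81e-05) without the 3 libraries. The rest of Pax5 differed by 2.35 points (adjusted p = 0.127), but was called with litter as a block (3.04 points, adjusted p = 0.0063), by limma (adjusted p = 8.50e-04) and with at least 10 reads per CpG (1.98 points, adjusted p = 0.0193). Pax2 rose by 2.84 points (adjusted p = 0.0116) in the rest of its window, from 21.9 to 24.8%. Pax8 rose by 2.84 points in its core (SE 2.05, adjusted p = 0.0469) and by 4.39 in the rest (adjusted p = 0.0368), with 30 to 523 reads per embryo, summed over CpGs, behind the core. The Pax8 core call was lost with litter as a block (3.13 points, adjusted p = 0.174) and on leaving out any of 11 single libraries of 25. KO 0.1 ppm replicate 3, at 29.5% on 44 reads, was not among these, but without it the difference was 1.79 points. limma called neither Pax8 region (2.87 points, adjusted p = 0.235, in the core and 2.60 points, adjusted p = 0.0810, in the rest), and the call of the rest was lost on leaving out any of 10 single libraries of 25. En1 and En2 had no region that passed.

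Pax5 and Pax2 held runs of gaining CpGs inside introns or across an exon end. The second Pax5 run, 1707 to 1783 bp past the start, averaged 45.2% ± 11.9 (SD, n = 9) in WT, 46.7% ± 7.28 (SD, n = 10) in HET and 67.0% ± 8.33 (SD, n = 16) in KO. The first lay 145288 to 145355 bp inside the gene and averaged 30.5, 35.1 and 50.54%. The Pax2 run covers part of a coding exon and an intron and averaged 69.6, 77.3 and 81.4% over 4 gaining CpGs of 5 measured. It is the run in which HET stood furthest from WT, at 7.71 points. The second Pax5 run is printed as the one in the shore (chr4:44708615-44708712, mm10, minus strand, GRCm38.p6), with its 5 measured CpGs in capitals.
Pax5 run 2: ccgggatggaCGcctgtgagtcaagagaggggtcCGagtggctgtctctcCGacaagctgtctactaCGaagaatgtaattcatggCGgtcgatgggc

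Forebrain and eye field genes rose in 7 of 35 regions, beside 39.2% of all regions, and all by under 2 points as regions. The shore of Nkx2-1, which patterns the ventral forebrain, went from 0.631 to 1.45% in WT to 1.03 to 2.72% in KO, by 0.90 points (SE 0.190, adjusted p = 3.66e-05), and 13 of 16 KO were above every WT. The shores of Gsx2, Dlx1 and Emx2, genes of the ganglionic eminences and dorsal telencephalon, rose by 0.45, 0.34 and 0.29 points. Gsx2 lost its call without the 3 libraries (0.32 points, adjusted p = 0.0761). The Dlx1 and Emx2 shores lost theirs with litter as a block (0.25 points, adjusted p = 0.214, and 0.29 points, adjusted p = 0.0728), and limma called neither. The rest of Pax6, Lhx2 and Six3 rose by 1.00, 0.81 and 0.33 points. With at least 10 reads per CpG none of the 3 passed, at 0.33 (adjusted p = 0.317), 0.30 (adjusted p = 0.165) and 0.07 points (adjusted p = 0.689). The shore of Pax6, the eye master regulator, differed by -0.01 points, and that of Nkx2-2, a ventral progenitor gene, by 0.01, neither past the test.

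A small mean over a region can hide a few CpGs that moved far. In Lhx2, 4 CpGs in an intron 16458 to 16627 bp past the start went from 15.6 to 42.2% (mean 24.96%) in WT to 37.9 to 69.6% (mean 56.5%) in KO, with HET at 19.6 to 39.1%, and 15 of 16 KO were above every WT. At the first of them, chr2:38367217, the mean was 21.6% in WT and 65.2% in KO. In Nkx2-1, 3 CpGs upstream, at -1110 to -1022 bp from the start and within Gm26973, averaged 5.19% in WT, 7.20% in HET and 19.99% in KO. Single CpGs in coding exons of Six3 (43.67% in WT and 72.9% in KO), Gbx2 (19.8 and 37.9%) and Lhx9 (75.4 and 92.2%) also gained, and these were named after their values were seen. The Lhx2 stretch (chr2:38367207-38367397, mm10, plus strand) and the Nkx2-1 stretch (chr12:56537920-56538029, minus strand) are shown from GRCm38.p6 as the forebrain runs, with measured CpGs in capitals.
Lhx2 run 1: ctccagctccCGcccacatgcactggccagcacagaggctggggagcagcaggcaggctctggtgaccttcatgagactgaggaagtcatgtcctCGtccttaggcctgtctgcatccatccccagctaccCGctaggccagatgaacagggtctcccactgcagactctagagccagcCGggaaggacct
Nkx2-1 run 1: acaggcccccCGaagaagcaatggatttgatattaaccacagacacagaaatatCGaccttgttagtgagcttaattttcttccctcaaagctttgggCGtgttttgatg

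**Figure D4:**
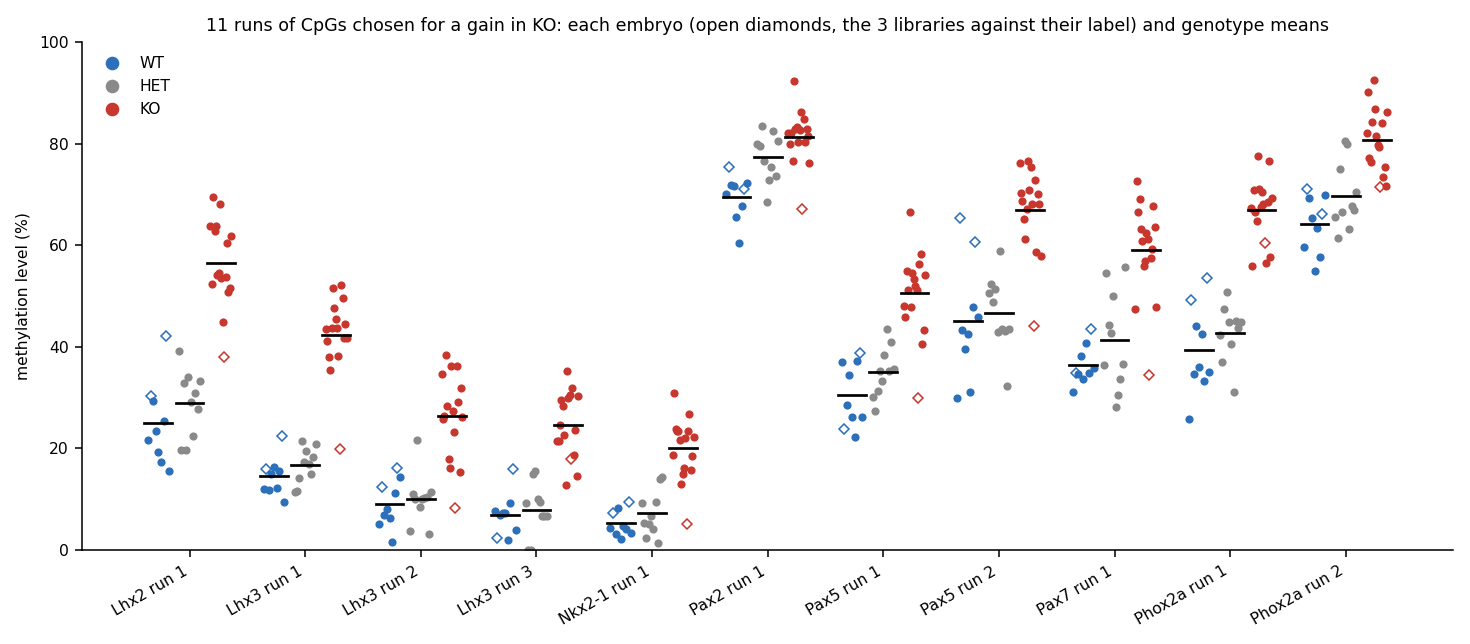
Methylation level in percent (y axis) over the gaining CpGs of each of the 11 runs (x axis) in each WT, HET and KO embryo, with genotype means as bars and the 3 libraries against their labels as open diamonds. The KO mean lies between 19.99% for Nkx2-1 and 81.4% for Pax2, and the HET mean lies nearer to WT than to KO in every run but that of Pax2.

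In the ventral and dorsal neural tube, 2 of 11 and 2 of 9 regions rose, beside 39.2% of all regions. Both ventral regions were of Nkx6-2, a progenitor gene of the ventral and intermediate domains. Its shore went from 0.565 to 1.87% (median 1.06%) in WT to 0.969 to 3.65% (median 2.70%) in KO, by 1.54 points (SE 0.247, adjusted p = 2.53e-06), and 14 of 16 KO were above every WT, with 1.71 points without the 3 libraries. Its core rose by 0.31 points (adjusted p = 0.00489), and not with litter as a block (0.29 points, adjusted p = 0.0581). Nkx2-2, Nkx6-1 and Dbx1 had no region that passed. Msx1, a dorsal midline gene that responds to BMP signals, rose outside its promoter from 6.00 to 20.5% (median 14.6%) in WT to 12.5 to 38.1% (median 27.5%) in KO, by 14.9 points (SE 2.60, adjusted p = 5.81e-05), and by 17.2 without the 3 libraries. HET ran from 0 to 26.5% there, and only 3 CpGs, with 17 to 242 reads per embryo summed over them, lie behind it. Pax7, which marks the dorsal neural tube and midbrain roof, rose by 1.86 points, with 1 intronic run that went from a mean of 36.38% in WT through 41.27% in HET to 59.2% in KO. Iroquois genes rose in 2 of 12 regions (39.2% of all did), the rest of Irx5 by 1.88 points and of Irx1 by 0.61. Irx1 did not pass with at least 10 reads per CpG (0.33 points, adjusted p = 0.592) or by limma (adjusted p = 0.0754), and neither did Pax7 at that coverage (1.09 points, adjusted p = 0.0534). The Irx5 shore was called by limma (0.42 points, adjusted p = 0.0381) and at that coverage (0.36 points, adjusted p = 0.0449), and the Irx3 shore with a core of 1000 bp (0.26 points, adjusted p = 0.0450). The TALE genes Meis1 and Meis2, whose proteins act as partners of other homeobox factors, rose in 0 of 6 regions, and the rest of Meis2 differed by 2.73 points with wide overlap, at 19.5 to 32.8% in WT and 26.0 to 36.9% in KO. limma called that region (adjusted p = 0.00199), and the rest of Meis1 passed without the 3 libraries (1.67 points, adjusted p = 0.0123).

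Counted by CpG, 89 of the 4795 CpGs (1.86%) were at least 10 points higher in KO and 0 were at least 10 points lower, beside 6.50% and 0.0155% of CpGs of all genes. Gains were spread over 17 genes, with 18 of 283 measured CpGs in Pax5, 14 of 255 in Pax2, 12 of 85 in Lhx3, 11 of 222 in Pax7 and 8 of 54 in Phox2a. Introns held 65 of the gaining CpGs out of 1471 measured, coding exons 11 of 1290, flanks outside the gene 11 of 892, UTRs 1 of 996 and other exons 1 of 146. This split was not made over all genes, so it cannot be read as a trait of these genes. Split by the level in HET, which neither group of the difference uses, CpGs under 5% had a median KO minus WT difference of 0.11 points in the patterning genes and 0.11 over all genes, with 0.0900% and 0.866% of them gaining at least 10 points. Those at 5 to 20% had 3.10 points (122 CpGs) against 11.6 over all genes, with 18.0% and 55.9% gaining. Those at 20 to 80% had 12.01 points (97 CpGs) against 10.97, with 59.8% and 54.2% of them gaining at least 10 points. The gaining share of the patterning genes was thus lower in both classes under 20%, and close to that of all genes from 20 to 80%. This is a description over CpGs that share embryos and neighbours.

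**Figure D5:**
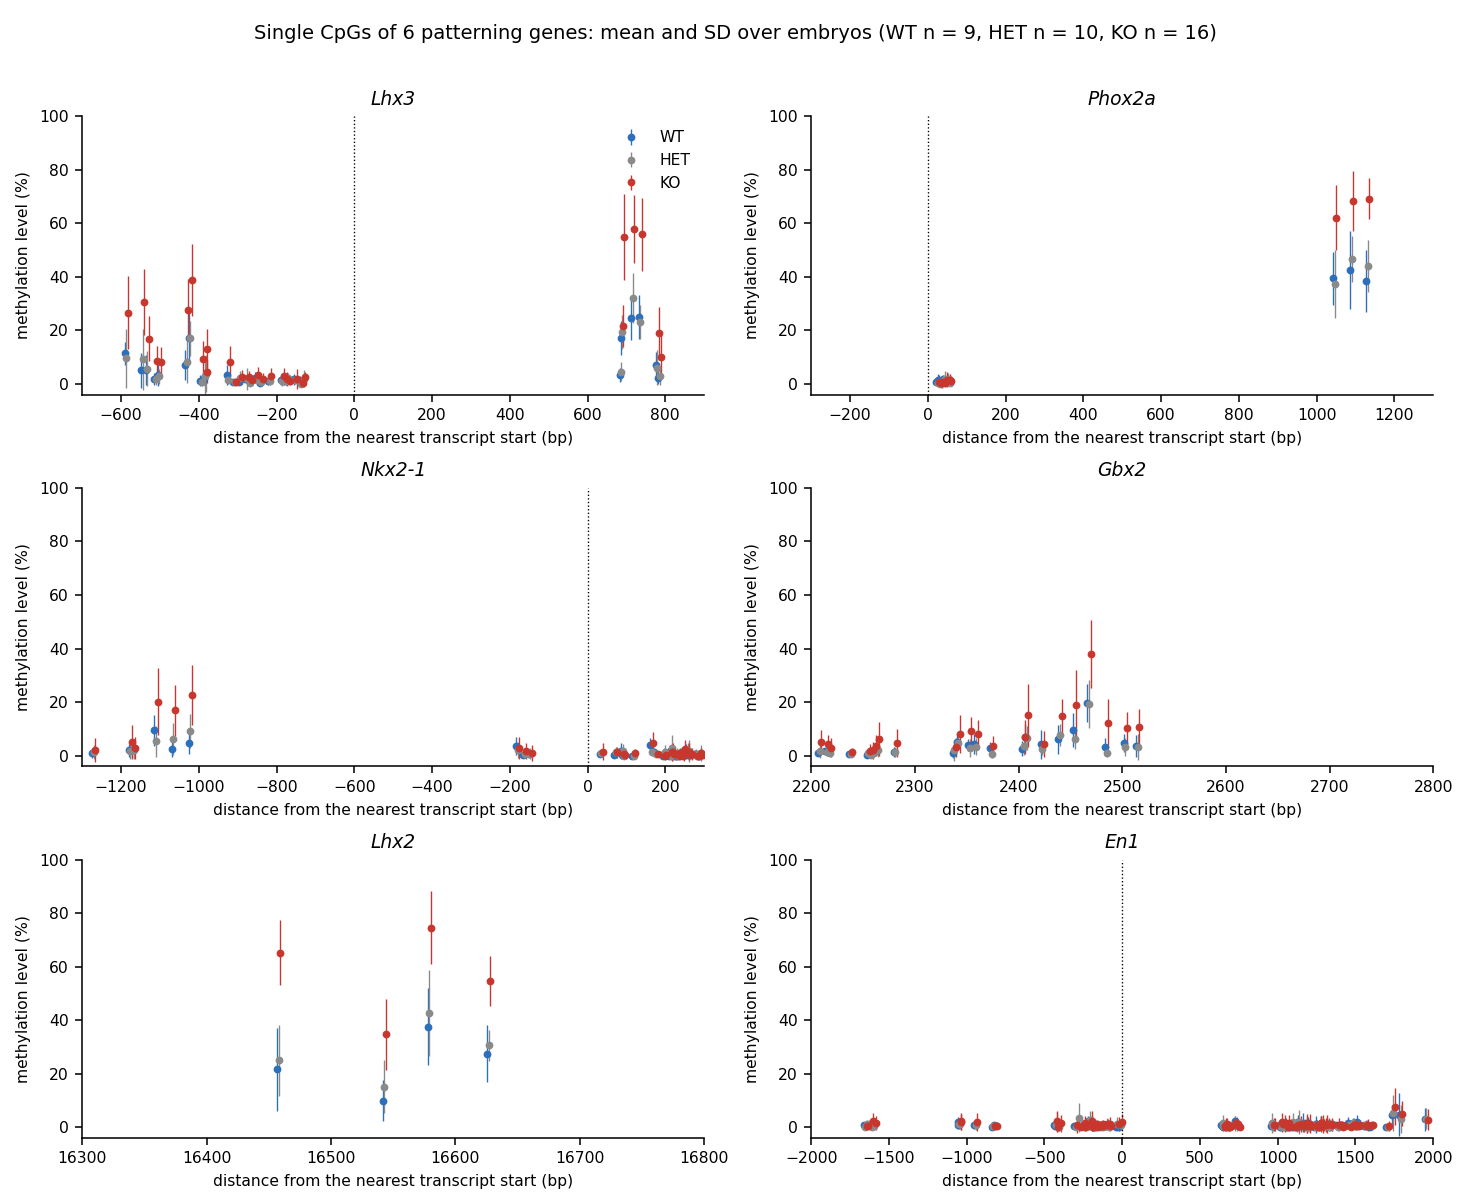
Mean methylation level in percent with its SD over embryos (y axis) of measured CpGs by distance in bp from the nearest transcript start (x axis), in WT, HET and KO, for Lhx3, Phox2a, Nkx2-1, Gbx2, Lhx2 and En1. Some of the gains sit in short stretches, such as the Lhx3 run where WT averaged 14.5% and KO 42.4%. Gbx2 held no such run, and 1 of its 166 measured CpGs was at least 10 points higher in KO. The En1 CpGs stay near 0 in all 3 genotypes.

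With 1 targeted allele, no region passed in the full set of libraries. In HET against WT, 0 of the 107 regions passed (0.245% of all regions did), 0 had an unadjusted p under 0.05 (11% of all), and limma called 0. The Phox2a shore differed by 3.79 points (SE 3.46) and the Lhx3 shore by 1.70 (SE 1.20). The Pax8 core, with the lowest adjusted p (0.470), was lower in HET by -3.62 points (SE 1.35). Without the 3 libraries that went against their labels, of which 2 are labelled WT, 1 region passed (5.28% of all regions rose), the Phox2a shore, by 8.79 points (SE 2.30, adjusted p = 0.0413).

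The KO gain was next compared within each diet, in embryos that also enter the comparison over all diets. At 3 ppm FA 13 of 107 regions rose (29.3% of all regions did), led by the Phox2a shore with 31.7 points (SE 2.87, adjusted p = 6.20e-06) and the Lhx3 shore with 24.0 (SE 1.61, adjusted p = 1.44e-08), and the other 11 rose by 0.42 to 20.4 points. With litter as a block the Dlx2 core lost its call there (0.35 points, adjusted p = 0.139), while the rest of Irx5, Pax2 and Pax5 gained one. At 0.1 ppm 10 rose (18.2% of all), led by the same shores with 27.6 points (SE 7.50, adjusted p = 0.0131) and 21.2 (SE 2.12, adjusted p = 7.60e-05), and the other 8 rose by 1.06 to 6.38 points. With 2 WT embryos at 0.1 ppm, 5 passed with litter as a block, a fit for which the share of all regions is not given here. Without WT 0.1 ppm replicate 1 the Phox2a difference was 15.9 points. Without the library labelled WT 0.1 ppm replicate 2 and the other 2 it was 39.4 points. Both fits leave 1 WT embryo, taken to vary like the KO. At 30 ppm only the Lhx3 shore rose (3.2% of all regions did), by 16.9 points (SE 4.32, adjusted p = 0.0372), and 0 passed with litter as a block, where the Lhx3 difference was 16.1 points (adjusted p = 0.0773). The Phox2a shore differed by 24.2 points (SE 6.36, adjusted p = 0.0549), with all 6 KO above every WT, and missed the threshold. The 30 ppm KO group holds the library that the study lists as HET. A WT library against its label is there too, and without the 3 libraries 15 of 107 regions passed there (25.6% of all regions did), among them those of Phox2a, Lhx3, Gbx2, Lhx9, Msx1, Nkx2-1 and Nkx6-2. Leaving out the library labelled KO 30 ppm replicate 1 gave 7 (17.9% of all), leaving out that labelled WT 30 ppm replicate 2 gave 4 (13.1% of all), and leaving out any other gave 0.

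By group, the Phox2a shore averaged 40.6% ± 11.2 (SD, n = 3) in WT and 64.9% ± 7.95 (SD, n = 6) in KO at 30 ppm. At 3 ppm it averaged 39.3% ± 4.69 (SD, n = 4) and 71.0% ± 3.96 (SD, n = 5), and at 0.1 ppm 37.5% ± 16.6 (SD, n = 2) and 65.1% ± 5.59 (SD, n = 5). In KO 30 ppm differed from 3 ppm by -6.17 points (SE 3.93), which did not pass the test. Without the 3 libraries against their labels, this Phox2a difference was -5.29 points (SE 4.22) and the same difference of the Lhx3 shore was -2.64 (SE 1.83). Neither passed. HET averaged 41.1, 47.7 and 39.6% at 30, 3 and 0.1 ppm, and diet was not tested in HET. The Lhx3 shore averaged 11.4% ± 4.56, 9.37% ± 2.05 and 8.90% ± 0.653 (SD) in WT at 30, 3 and 0.1 ppm, and 28.3% ± 6.63, 33.4% ± 2.64 and 30.1% ± 2.82 in KO. No test of diet passed in these genes or over all genes. Excess against control FA gave 0 of 107 in WT and in KO (0% of all regions in both), with 4 and 4 at an unadjusted p under 0.05 (2.9 and 6.79% of all). Depleted against control FA also gave 0 in both genotypes (0% of all), with 2 and 4 (4.36 and 4.98% of all). limma gave 0 in each as well, with 2, 7, 6 and 5 unadjusted. Shares of all regions are not given for limma, here or in the tests below.

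Whether the KO effect itself changed with diet was tested as an interaction, with the 3 ppm groups shared by both tests. For excess FA 0 of 107 regions passed (0% of all regions) and 8 had an unadjusted p under 0.05 (6.02% of all), and for depleted FA 0 passed (0%) and 7 did (4.48%). limma gave 0 in both, with 8 and 5 unadjusted. The KO minus WT difference of the Lhx3 shore was lower by -7.15 points (SE 4.53, adjusted p = 0.823) at 30 than at 3 ppm and by -2.76 (SE 2.64, adjusted p = 0.996) at 0.1 than at 3 ppm. For the Phox2a shore the values were -7.49 (SE 6.86) and -4.09 points (SE 7.13). Without the 3 libraries they were -2.36 (SE 2.92) and -2.30 points (SE 3.29) for Lhx3, and -0.18 (SE 6.37) and 7.67 points (SE 6.17) for Phox2a, so the last changed sign. That fit leaves 1 WT embryo at 0.1 ppm, on which both of its values rest. Neither value at 30 ppm had an adjusted p under 0.05. The SEs leave room for differences of several points in either of these shores.

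Among KO embryos, the 5 with NTD were compared with the 7 labelled norm, with diet as a term. Here 0 of 107 regions passed (0% of all regions), 7 had an unadjusted p under 0.05 (5.79% of all), limma gave 0 with 3 unadjusted, and the lowest adjusted p was 0.856. Differences ran from -2.54 points for the rest of Meis2 (SE 1.498) to 6.17 for the Pax8 core (SE 3.45). The latter was 2.80 points (SE 1.44) without KO 0.1 ppm replicate 3, an NTD embryo at 29.5% on 44 reads. The Phox2a shore averaged 66.2% ± 5.66 (SD, n = 5) in NTD and 67.9% ± 6.09 (SD, n = 7) in norm embryos, and the Lhx3 shore 30.4% ± 3.49 and 31.9% ± 2.61 (SD).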

How the data were processed

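oxBS-RRBS libraries of single embryonic brains were analysed from the per-CpG tables that the authors deposited. The authors trimmed reads with Trim Galore 0.6.10, aligned them to mm10 with Bismark 0.24.1, removed duplicates by molecular identifiers with UMI-tools and used methylKit 1.26.0. Each deposited table gives, per CpG with both strands joined, the methylated fraction and the read count. Their product was a whole number of methylated reads at every CpG, and all positions checked were CG in GRCm38. Deposited lists of the authors' own differentially methylated regions were not used.

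Groups came from the labels. The 38 genes, their roles and the other homeobox genes were chosen with earlier results of these data known. Regions with at least 3 CpGs covered by 5 or more reads in all 35 embryos were fitted by a quasi-binomial logistic model on methylated and unmethylated reads, with the dispersion moderated across all regions (as in limma) and held at 1 or above. Genotype comparisons over all diets, and NTD against normal, had diet as a term. Differences and SEs in percentage points are least squares fits on levels that weight embryos equally, whereas the test weights reads. p-values are two-sided, and Benjamini-Hochberg adjustment ran over all 32705 regions of a comparison, with a threshold of 0.05. Named were, for KO against WT, the 6 regions per class with the largest called difference and the 3 shores with the smallest difference, for HET against WT the 6 largest called regions, and otherwise the 2 largest called in each direction. Other genes were named after their values were seen.

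Replicates are separate embryos. Titles name the litter, and 14 same-litter WT and KO pairs had deviations from their group means correlated at -0.0793 to 0.325 (median 0.03). For 34 pairs of different litters on the same diet the correlations were -0.425 to 0.243 (median -0.0185). The main fits have no term for litter. A litter block, sex as a covariate, limma 3.58.1 on levels, coverage of 10, at least 5 CpGs, filters on spread and size, a core of 1000 bp, CpGs covered in every embryo of the comparison only, all 36 libraries and left-out libraries were the alternatives. Reads per region limit precision most at low depth. Scripts used Python 3.11.15 and R 4.3.3 and were tested on simulated data.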

Additional observations from a re-analysis of the deposited data

Results flagged for a closer look

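Single embryos far from the others of their group were looked for in 20 named regions, in 100 groups of 4 to 6 embryos, of which 4 showed one by Dixon's criterion. Chance alone gives about 1 in 20 groups. In the Pax8 core, KO 0.1 ppm replicate 3 was at 29.5%, on 44 reads, while the other 4 embryos of its group were at 5.71 to 10.0%. In the Lhx1 core, WT 3 ppm replicate 2 was at 1.88%, with the others at 2.73 to 2.77%. The library labelled KO 30 ppm replicate 1 stood below its group in both other cases, at 4.15% in the rest of Gbx2 (others 8.18 to 9.91%) and at 9.49% in the rest of Phox2a (others 13.6 to 14.7%). It is one of the 3 libraries whose Tet1 reads went against their labels.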

How the results depend on the processing

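Counts for KO against WT over all diets (5 cores, 8 shores, 13 regions of the rest) fell to 2, 3 and 6 when regions with an SD under 2 points were left out, to 0, 2 and 1 when at least 10 points were asked for as well, and to 3 cores with litter as a replicate block. At 30 ppm the count of 1 became 2 with a coverage of 10 or with the SD filter, 15 without the 3 libraries against their labels, and 0 with the litter block, with sex as a covariate or with limma. At 3 ppm the count of 13 became 8 with the SD filter and 3 with 10 points. At 0.1 ppm the count of 10 became 4 with a coverage of 10 or the SD filter, 5 with the litter block and 2 with 10 points. HET against WT went from 0 to 1 without the 3 libraries. Shares of all regions are given here only for the main fits and for fits without the libraries against their labels. For the other counts, a fall over all genes cannot be told from a fall in these genes. Leaving out 1 library at a time gave 4 to 5 cores, 6 to 9 shores and 10 to 14 regions of the rest, 0 to 7 regions at 30 ppm, 12 to 15 at 3 ppm, 4 to 11 at 0.1 ppm, and 0 in every other comparison. The other 315 counts under an alternative stayed within 1.5 times, and the litter block moved no other count by more. It could not be fitted for diet within a genotype or NTD against normal, since litters do not cross those groups.

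Of the named regions, 697 values kept direction and side of the threshold, 41 lost the threshold and 29 changed sign, all of the 29 in the 3 near-0 shores. These were En1 (-0.104 points with a coverage of 10, -0.0365 without the 3 libraries, -0.0506 to 0.0690 with 1 library left out), Nkx2-2 (-0.0162 with a core of 1000 bp, -0.0202 without the 3 libraries, -0.0551 to 0.0431) and Pax6 (0.0375 with a coverage of 10, 0.0329 with a core of 1000 bp, 0.0333 with the litter block, -0.0492 to 0.0294). The calls of the Pax8 core, the Pax8 rest and the Lhx3 shore at 30 ppm were lost on leaving out 11 of 25, 10 of 25 and 7 of 9 libraries. The cause of these shifts was not tested. Levels near 0 rest on few methylated reads, and the Phox2a shore and the rest of Msx1 rest on 3 CpGs each.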
